A study of Sus scrofa with 14 samples.

Results

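The Wnt pathway was read here as 61 of the 15031 rows of a pig RNA-seq expression table, taken by gene name. They comprise 17 WNT ligands, 2 genes of ligand secretion (PORCN and WLS), 10 secreted antagonists, 12 receptors, 7 genes of the R-spondin axis, 9 components inside the cell and 4 transcription factors. Expression was given as TPM, transcript abundance scaled to transcript length and to the library total, in 14 wild-type libraries of 5 groups. The study differentiated porcine pre-gastrulation epiblast stem cells (pgEpiSCs), a pluripotent line from the early embryo, towards skeletal muscle without serum and compared the products with differentiated muscle stem cells.

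The 3 pgEpiSCs-high and 3 pgEpiSCs-Low libraries came from undifferentiated cells at high and low passage. These cells grew on mouse embryonic fibroblast feeders with LIF, activin A, FGF2, the kinase inhibitor WH-4-023 and 2 small molecules that act on this very pathway, the GSK3 inhibitor CHIR99021 at 1 µM and the tankyrase inhibitor IWR-1-endo at 2.5 µM. The 2 pgEpiSCs-MPCs libraries (MPCs, labelled as muscle progenitors) were taken on day 8, after 3 days in 3 µM CHIR99021 with 2 µM of the TGF-beta receptor inhibitor SB431542. By the study's methods, though not by the sample labels, the next medium again held 3 µM CHIR99021, with the BMP receptor inhibitor LDN193189 and FGF2, for a time not given. It was followed by a medium without CHIR99021 that held the growth factors HGF, IGF-1 and FGF2 with LDN193189. The study characterised its MPCs by staining and flow cytometry in that medium. Whether the day 8 libraries were taken from it is not stated in the methods. The 3 pgEpiSCs-MCs libraries (MCs, labelled as muscle cells) were taken on day 44. The differentiation media that followed the one with HGF, IGF-1, FGF2 and LDN193189 held IGF-1 alone, then HGF with IGF-1, and the last was an N2 medium. The 3 MPC-Dif libraries came from muscle stem cells of the longest dorsal muscle of 1-week-old pigs, held for 4 days in 2% horse serum. Exposure to Wnt-active compounds therefore differed between the groups along with cell identity, and their parts cannot be told apart in this design. Whether replicate libraries stem from independent cultures is not given in the labels or methods, so p-values measure the spread between these libraries, which may be technical.

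WNT proteins are lipid-modified by PORCN, carried to the cell surface by WLS and bound by Frizzled (FZD) receptors with the co-receptors LRP5 and LRP6. Binding stops the destruction complex of AXIN, APC and GSK3 from marking beta-catenin (CTNNB1) for degradation, and beta-catenin then acts with TCF and LEF factors on target genes, several of which, such as AXIN2, NKD1, ZNRF3 and NOTUM, feed back to dampen the pathway. R-spondins, through LGR receptors, hold off ZNRF3 and RNF43, which otherwise remove Frizzled from the surface, while SFRP, DKK and WIF1 proteins block ligands or receptors from outside. In the embryo, Wnt signals pattern the primitive streak, the dorsal neural tube and the somites from which trunk muscle forms.

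The libraries had 12150 to 13781 genes above 0.5 TPM. Mitochondrial transcripts took 19.8% to 24.9% of TPM in pgEpiSCs, 15.8% to 17.1% in MPCs, 6.07% to 6.61% in MCs and 6.74% to 7.10% in MPC-Dif. TPM keeps no read depth, so depth is unknown. Marker lists were read beside the labels. The 7 myogenic progenitor genes summed to 156 to 168 TPM in MPCs, against 6.81 to 10.5 TPM in pgEpiSCs, but MYF5 stayed under 0.5 TPM in both MPC libraries. The 9 measured dorsal neural and neural crest genes summed to 3450 to 3516 TPM in MPCs, against 287 to 391 TPM in pgEpiSCs. Their sum was 2397 to 2546 TPM in MCs and 215 to 230 TPM in MPC-Dif. CRABP1, ZIC1 and NES led it in MPCs, averaging 1416, 1071 and 696 TPM. The neural crest genes SOX10 and FOXD3 were listed at 0 in both MPCs libraries, against means of 0.339 and 7.85 TPM in pgEpiSCs. TFAP2A averaged 3.15 TPM in MPCs and 0.548 TPM in pgEpiSCs. The 6 measured genes of differentiated muscle summed to 342 to 388 TPM in MCs, against 656 to 719 TPM in MPC-Dif. The 8 fibroblast genes summed to 14960 to 16230 TPM in MCs, against 25980 to 26910 TPM in MPC-Dif. COL1A1 and COL1A2 made most of the sum in MCs, averaging 6077.5 and 8213 TPM, against 7595 and 8477 TPM in MPC-Dif. DCN, LUM and THY1 averaged 15.2, 28.6 and 107 TPM in MCs, against 2930, 600 and 1613 TPM in MPC-Dif. COL3A1 and POSTN were also lower in MCs, while FBLN1 went the other way, averaging 200 and 98.3 TPM. The 7 measured pluripotency genes summed to 5479 to 6297 TPM in pgEpiSCs, 190 to 231 TPM in MPCs, 105 to 141 TPM in MCs and 1.44 to 1.70 TPM in MPC-Dif. SOX2 made most of the sum in MCs, at 96.9 to 130 TPM, against 61.2 to 92.0 TPM in pgEpiSCs. NANOG, LIN28A and LEFTY2 were at most 0.64, 1.225 and 2.248 TPM in MCs. DNMT3B was at 7.79 to 8.58 TPM in MCs, and ZFP42 and DPPA4 were listed at 0.

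Differences were tested with limma on log2(TPM + 1) in a single model of all 14 libraries, with Benjamini-Hochberg adjustment over 14957 genes. A log2 difference below is on that scale, which understates the change of genes near 0, and a gene is called at an adjusted p below 0.05. Of the 61 members, 60 were tested. WNT2 was at most 0.51 TPM in every library and was not tested.

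**Figure D1:**
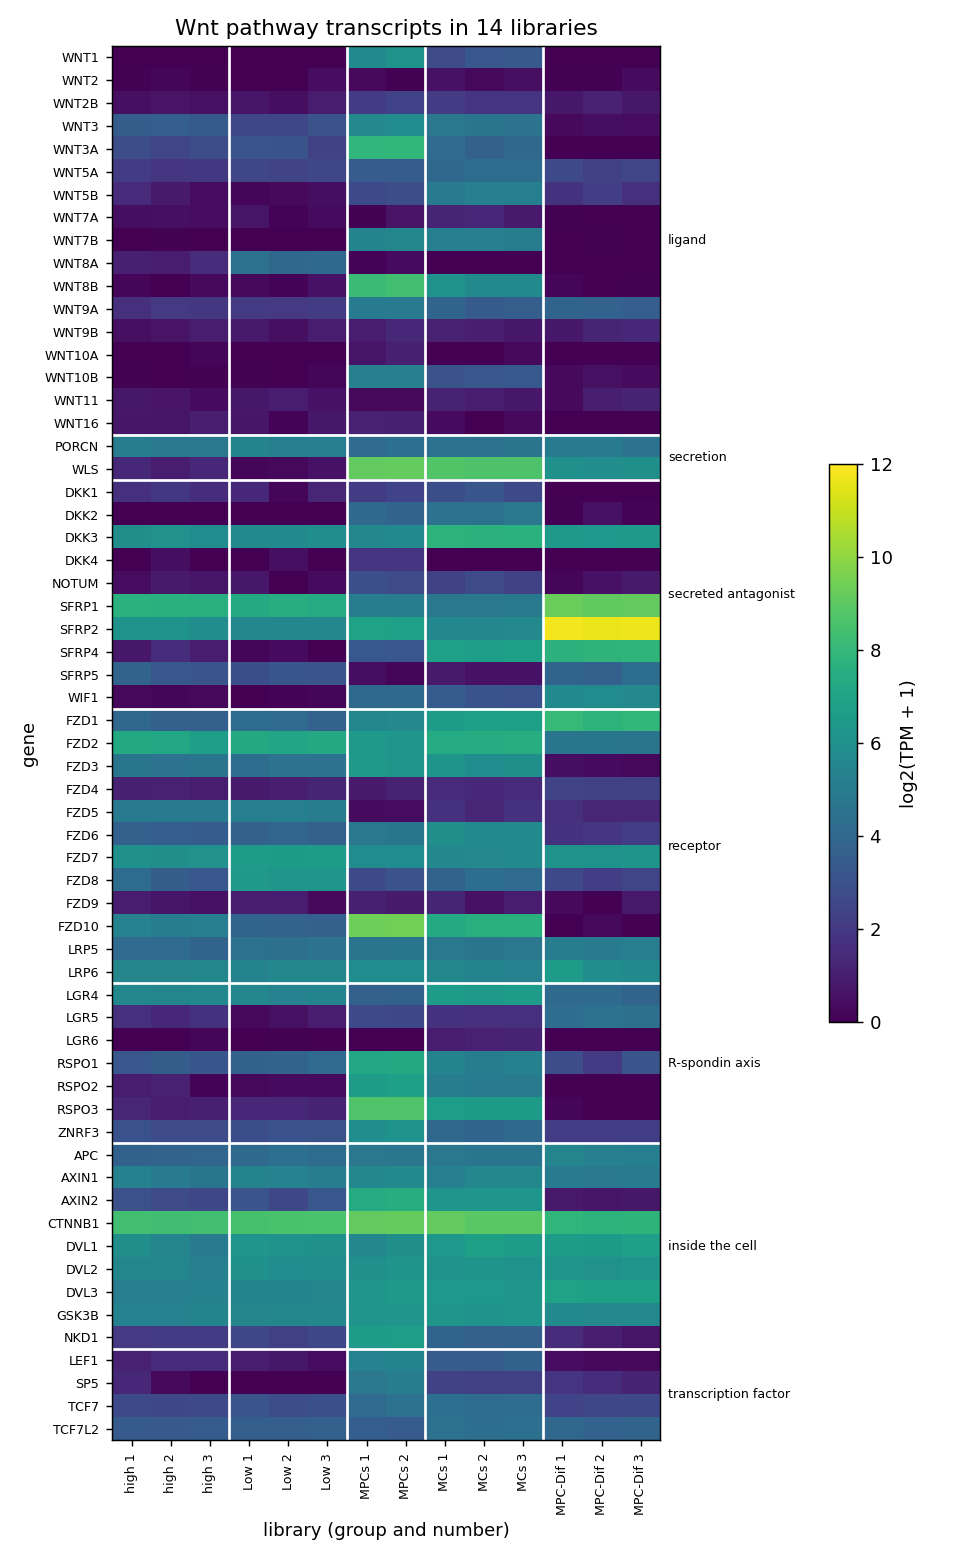
Level of each of the 61 members (rows, grouped by role) in each of the 14 libraries (columns, grouped by cell state), as log2(TPM + 1) by colour. Most ligand and R-spondin rows are brightest in the 2 MPCs libraries, SFRP2 is brightest in MPC-Dif, and CTNNB1 is bright throughout.

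The first comparison, MPCs with pgEpiSCs, addressed how transcripts of the pathway on day 8 differed from those of undifferentiated cells. Of the 60 tested members, 41 rose and 10 fell, and 9 did not pass. Among all genes tested, 47.5% were higher and 21.4% lower, so the 68.3% of members called higher is above that share and the 16.7% called lower is below it. The median log2 difference was 1.10 over the members and 0.24 over all genes. Of the called genes of the whole table, 31.0% were lower in MPCs on the deposited scale, 49.4% after median-of-ratios scaling and 53.6% after quantile normalization. Under these 2 scalings 37 and 36 members were higher and 11 and 13 lower. In bulk libraries, more cells of a type and more RNA per cell cannot be told apart, which holds for all comparisons here.

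Ligand transcripts were far higher in MPCs. Summed over the 17 ligands, the level was 757 and 842 TPM in the MPCs libraries, against 25.9 to 46.1 TPM in the 6 pgEpiSC libraries. Of the 16 ligands tested, 12 rose and only WNT8A fell. WNT8B, a ligand known from the embryonic forebrain and neural tube, was at 291 and 334 TPM in MPCs, against 0 to 0.505 TPM in pgEpiSCs (log2 difference 8.05, SE 0.15, adjusted p = 1.64e-14). WNT3A, which in mice is needed for somite formation, was at 238 and 246 TPM in MPCs, against 4.09 to 8.10 TPM in pgEpiSCs (log2 difference 5.11, SE 0.20, adjusted p = 2.10e-11). WNT8B and WNT3A made up 39.1% and 30.3% of the summed ligand level in MPCs.

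A second tier of ligands was all but missing from pgEpiSCs and present in MPCs. WNT7B was at 40.1 and 44.5 TPM in MPCs, against at most 0.061 TPM in pgEpiSCs (log2 difference 5.42, SE 0.09, adjusted p = 9.15e-15). WNT1, the classic dorsal midbrain ligand, was at 52.4 and 68.8 TPM in MPCs, against libraries all listed at 0 in pgEpiSCs, and passed the test (adjusted p = 1.78e-13). WNT10B was at 36.2 and 36.8 TPM in MPCs, against at most 0.175 TPM in pgEpiSCs (log2 difference 5.15, SE 0.11, adjusted p = 6.71e-14). WNT1 (chr5:15010607-15015007, plus strand) and WNT10B (chr5:14997377-15013928, minus strand) overlap by 3322 bases by RefSeq coordinates on Sscrofa11.1, to which the study also aligned its reads. The strand setting of the counting is not given in the sources used here, so reads in the shared stretch cannot be assigned to either, and the pair is better read as a sum, 88.6 and 106 TPM in MPCs, against at most 0.175 TPM in pgEpiSCs.

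Such overlaps concern 12 of the 61 members where the other gene codes for protein. WNT8B (chr14:111562278-111589897, plus strand) overlaps SEC31B on the opposite strand. SEC31B, a coat protein gene of secretory vesicles, was at 29.0 and 33.7 TPM in MPCs, against 7.86 to 9.34 TPM in pgEpiSCs, well under WNT8B in MPCs. In other pairs the partner was the higher gene. FBXL14, opposite WNT5B, was at 102 and 110 TPM in MPCs, against 5.48 and 6.13 TPM for WNT5B. BAZ1B, opposite FZD9, was at 177 and 185 TPM, against 1.06 and 0.851 TPM for FZD9. CEP112, on the same strand as AXIN2, was at 10.1 and 9.24 TPM in MPCs, under AXIN2 at 168 and 179 TPM. Shared reads of these pairs cannot be assigned either. Another pair of neighbours, WNT3A (chr2:51153978-51203678, plus strand) and WNT9A (chr2:51102757-51128346, minus strand), lies 25631 bases apart with no coding gene between. WNT9A was at 28.6 and 31.3 TPM in MPCs, against 2.14 to 3.36 TPM in pgEpiSCs (log2 difference 2.99). WNT3 (chr12:17627291-17681197, minus strand) and WNT9B (chr12:17709046-17733434, plus strand) are 27848 bases apart. Here the neighbours differed, since WNT3 was at 48.8 and 55.1 TPM in MPCs, against 4.86 to 10.9 TPM in pgEpiSCs, whereas WNT9B was at 0.906 and 1.56 TPM, against 0.390 to 0.965 TPM, and did not pass (adjusted p = 0.057).

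The other ligands moved less. WNT5A and WNT5B, best known for beta-catenin-independent signalling, were at 9.84 and 10.3 TPM and at 5.48 and 6.13 TPM in MPCs, against 2.78 to 4.89 TPM and 0.129 to 1.78 TPM in pgEpiSCs, and both rose. WNT2B, WNT10A and WNT16 rose at levels of at most 4.39 TPM, the last only on the deposited scale and under none of 3 other scalings. WNT7A and WNT11 did not pass. WNT8A, a primitive streak ligand, was at 0.074 and 0.26 TPM in MPCs, against 0.854 to 21.3 TPM in pgEpiSCs, where it was also the ligand that differed most between passages.

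**Figure D2:**
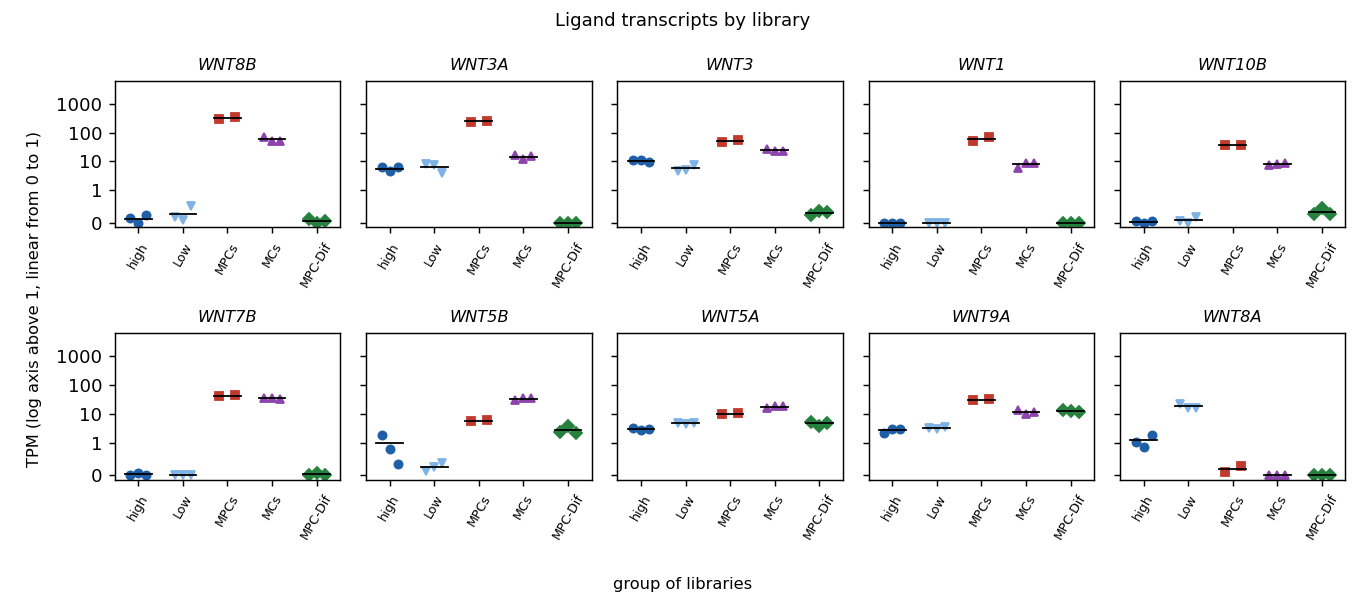
TPM of 10 ligands in each library (points) with the group mean (bar), on an axis that is logarithmic above 1 and linear from 0 to 1. WNT8B, WNT3A, WNT1 and WNT10B are highest in the 2 MPCs libraries and lower in the 3 MCs libraries, WNT5B is highest in MCs at 28.7 to 36.0 TPM, and WNT8A is highest in pgEpiSCs-Low.

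The secretion genes went opposite ways. WLS, the carrier that all lipid-modified WNT proteins use, was at 546 and 566 TPM in MPCs, against 0.123 to 1.64 TPM in pgEpiSCs, and its log2 difference of 8.34 (SE 0.13, adjusted p = 2.64e-15) was the largest of any member in this comparison. PORCN, the acyltransferase that adds the lipid, was at 17.5 and 20.0 TPM in MPCs, against 26.6 to 40.3 TPM in pgEpiSCs (log2 difference -0.75, SE 0.11, adjusted p = 3.50e-05). WLS was near 0 in pgEpiSCs, where PORCN was present in every library.

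Of the 10 secreted antagonists, 7 rose and 3 fell. SFRP1, a decoy that binds WNT proteins, was at 32.3 and 32.7 TPM in MPCs, against 163 to 202 TPM in pgEpiSCs (log2 difference -2.45, SE 0.05, adjusted p = 8.42e-14). SFRP5, of the same family, was at 0.104 and 0.355 TPM, against 6.37 to 13.3 TPM. SFRP2 moved the other way, at 117 and 124 TPM in MPCs, against 45.3 to 71.7 TPM in pgEpiSCs (log2 difference 1.12). The summed SFRP level was 157 and 166 TPM in MPCs, against 215 to 287 TPM in pgEpiSCs, so SFRP2 took the place of SFRP1 as the leading transcript of the family. DKK2, an LRP5 and LRP6 antagonist, was at 13.2 and 16.1 TPM in MPCs and listed at 0 in all 6 pgEpiSC libraries. WIF1, which binds WNT proteins directly, was at 16.5 TPM in both MPCs libraries, against at most 0.213 TPM in pgEpiSCs. DKK1, DKK4, NOTUM and SFRP4 also rose, at 2.46 to 8.89 TPM in MPCs. DKK3 was at 47.3 and 51.7 TPM, against 51.7 to 65.8 TPM in pgEpiSCs (log2 difference -0.21), and this call was lost without the first MPCs library (adjusted p = 0.12).

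The Frizzled repertoire changed in kind. FZD10 (chr14:24919483-24922554) was at 654 and 704 TPM in MPCs, against 12 to 38.7 TPM in pgEpiSCs (log2 difference 4.93, SE 0.09, adjusted p = 2.26e-14), and made up 69.3% of the summed FZD level in MPCs. In pgEpiSCs the leading receptor was FZD2, at 102 to 154 TPM, which fell to 76.9 and 85.1 TPM in MPCs (log2 difference -0.77). FZD5, a receptor of early embryonic epithelia, was at 0.268 and 0.321 TPM in MPCs, against 29.1 to 35.0 TPM in pgEpiSCs (log2 difference -4.66, SE 0.13, adjusted p = 7.00e-13), the deepest fall of any member. FZD8 fell as well, to 5.44 and 7.29 TPM in MPCs, against 8.43 to 86.5 TPM in pgEpiSCs. FZD1, FZD3 and FZD6 rose by 1.04 to 1.87 on the log2 scale, FZD7 fell by 0.48, and FZD4 and FZD9 did not pass. The co-receptors moved little, with LRP6 at 55.3 and 56.8 TPM in MPCs, against 39.7 to 46.9 TPM in pgEpiSCs (adjusted p = 0.075), while the call of LRP5 as higher (log2 difference 0.35) turned to -0.09 after quantile normalization.

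R-spondins rose with the ligands. RSPO3 was at 411 and 415 TPM in MPCs, against 0.917 to 1.62 TPM in pgEpiSCs (log2 difference 7.48, SE 0.11, adjusted p = 1.52e-15). RSPO2 was at 97.9 and 109 TPM, against 0.083 to 1.16 TPM, and RSPO1 at 143 and 149 TPM, against 8.39 to 17.3 TPM. Their sum was 652 and 673 TPM in MPCs, against 9.55 to 18.9 TPM in pgEpiSCs. Of their receptors, LGR4 fell to 12 and 12.2 TPM in MPCs, against 39.4 to 46.8 TPM in pgEpiSCs (log2 difference -1.79, SE 0.08), LGR5 rose to 5.16 and 5.37 TPM, against 0.20 to 2.33 TPM, and LGR6 was listed at 0 in both MPCs libraries. The ubiquitin ligase ZNRF3, a target gene that R-spondins counteract, was at 58.1 and 68.1 TPM in MPCs, against 5.62 to 7.24 TPM in pgEpiSCs. Its partner RNF43, listed under an Ensembl identifier and so outside the 61, was at 13.4 and 16.2 TPM in MPCs, against 0.242 to 1.97 TPM in pgEpiSCs (log2 difference 2.96).

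Feedback and target transcripts rose more than the rest of the intracellular machinery. AXIN2 (chr12:12311293-12343207, minus strand), the negative-feedback scaffold most often used as a readout of beta-catenin activity, was at 168 and 179 TPM in MPCs, against 4.91 to 8.43 TPM in pgEpiSCs (log2 difference 4.57, SE 0.15, adjusted p = 4.03e-12). NKD1, an inhibitor of Dishevelled, was at 96.7 and 103 TPM, against 3.00 to 5.10 TPM (log2 difference 4.38, SE 0.17). LEF1 was at 39.0 and 42.2 TPM, against 0.319 to 1.76 TPM, and SP5, a zinc-finger factor induced by Wnt signals, at 26.0 and 32.1 TPM, against 0 to 1.55 TPM. TCF7 rose by 1.52 and TCF7L2 did not pass. By comparison CTNNB1 was at 563 and 565 TPM in MPCs, against 316 to 384 TPM in pgEpiSCs (log2 difference 0.69, SE 0.05), and APC, AXIN1, GSK3B, DVL2 and DVL3 rose by 0.47 to 1.07. DVL1 did not pass.

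**Figure D3:**
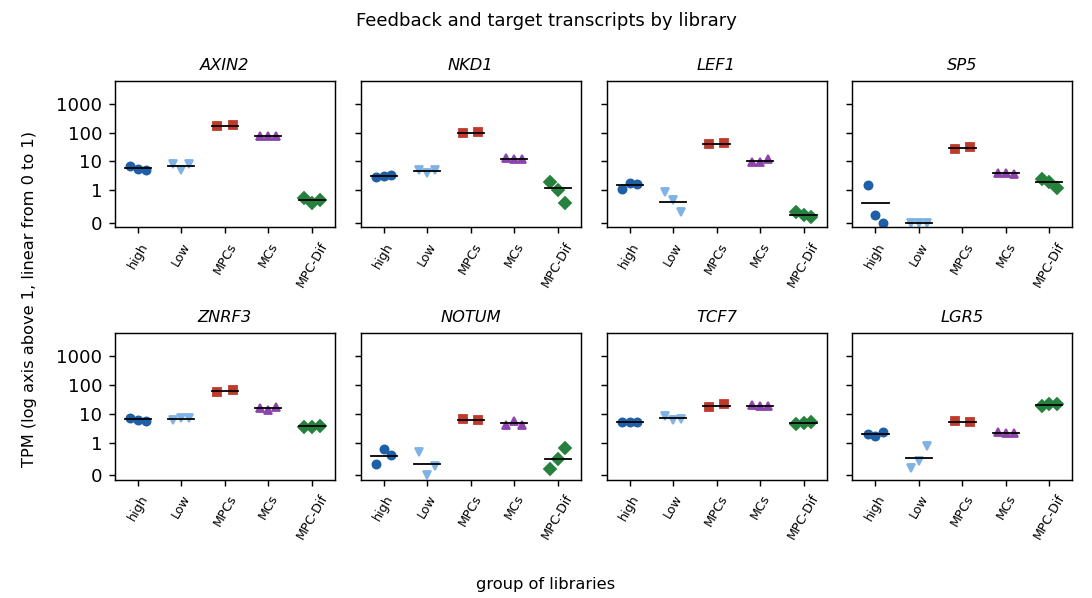
TPM of 8 feedback, target and receptor transcripts in each library (points) with the group mean (bar), on an axis that is logarithmic above 1 and linear from 0 to 1. AXIN2, NKD1, LEF1, SP5 and ZNRF3 are highest in the 2 MPCs libraries, TCF7 is alike in MPCs and MCs, and LGR5 is highest in MPC-Dif at 18.3 to 21.1 TPM.

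The letters CTTTGAT and CTTTGAA, a core bound by TCF and LEF factors, were searched on both strands from 250 bases before to 50 bases after each RefSeq gene start. They occurred in 8 of the 61 member windows (13.1%) and in 1264 of 19556 windows of all protein-coding genes (6.46%). The 8 members were AXIN2, NKD1, LEF1, TCF7, WLS, DKK1, DKK4 and WNT11. Of these, WNT11 was alone in not being called higher in MPCs, in a comparison where 68.3% of tested members and 47.5% of all genes were called higher. A link between the letters and the calls was not tested. The stretches of 5 members that reached at least 17.2 TPM in MPCs are shown because their levels are described above; each is 53 bases long, 5′ to 3′ on the strand of the gene, from the Sscrofa11.1 assembly of RefSeq, with the matched letters in capitals, which read ATCAAAG where the match is on the opposite strand. A match is a description of the letters and not evidence of binding.
AXIN2 (chr12:12343194-12343246, minus strand, match 16 bases before the gene start): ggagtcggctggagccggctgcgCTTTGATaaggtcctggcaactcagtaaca
NKD1 (chr6:34319584-34319636, minus strand, match 29 bases before the gene start): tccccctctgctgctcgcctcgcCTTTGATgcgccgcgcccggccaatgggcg
LEF1 (chr8:113824261-113824313, plus strand, match 238 bases before the gene start): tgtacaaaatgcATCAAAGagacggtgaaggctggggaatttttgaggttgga
TCF7 (chr2:136422714-136422766, plus strand, match 3 bases before the gene start): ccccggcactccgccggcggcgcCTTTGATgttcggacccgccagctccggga
WLS (chr6:144242389-144242441, plus strand, match 229 bases before the gene start): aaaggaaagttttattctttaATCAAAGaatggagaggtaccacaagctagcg
WLS (chr6:144242551-144242603, plus strand, match 65 bases before the gene start): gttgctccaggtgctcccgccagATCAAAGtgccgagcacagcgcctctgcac

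Wnt genes outside the 61 were read from 4 lists. Among all genes tested, 47.5% were higher and 21.4% lower in MPCs, and whether the lists differ from these shares was not tested. Of 16 other antagonists and modulators, 12 rose and 3 fell in MPCs. TPBG, a membrane inhibitor of Wnt signals, averaged 909 TPM in MPCs and 25.8 TPM in pgEpiSCs (log2 difference 5.09), and APCDD1 300 and 22.1 TPM (log2 difference 3.72), whereas CER1, a Nodal, BMP and Wnt inhibitor, was listed at 0 in MPCs, against a mean of 84.1 TPM in pgEpiSCs. Of 36 reported targets, 24 rose and 8 fell. Of the targets that rose, EN2 and PAX3 averaged 156 and 120 TPM in MPCs, against 0.023 and 0.026 TPM in pgEpiSCs. PAX3 is also among the 7 myogenic progenitor genes summed above. MYC, a target in many tissues, averaged 18.0 TPM in MPCs and 85.1 TPM in pgEpiSCs (log2 difference -2.15), and FST, the activin antagonist follistatin, 1.33 and 248 TPM (log2 difference -6.57). Of 30 further destruction complex and nuclear genes, 18 rose and 4 fell, and of 19 co-receptors and non-canonical genes, 13 rose and 3 fell. The ligands, R-spondins and targets that rose in MPCs moved together with the dorsal neural sum given above, though not with its members SOX10 and FOXD3. In this comparison they also moved with the 6 smooth muscle and mural genes. These summed to 1973 to 2059 TPM in MPCs, against 28.3 to 63.4 TPM in pgEpiSCs, with RGS5 under 0.5 TPM in both. The smooth muscle and mural sum was higher still in MCs, 5012 to 5163 TPM, and in MPC-Dif, 4711 to 5742 TPM. The summed ligand level was lower there than in MPCs, at 210 to 228 TPM in MCs and 22.1 to 24.6 TPM in MPC-Dif. The 4 measured paraxial mesoderm genes summed to 10.3 to 12.5 TPM in MPCs, against 8.82 to 18.2 TPM in pgEpiSCs. The part of these lists in the result was not tested.

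The second comparison, MCs with MPCs, addressed what happened between day 8 and day 44. Of the 60 tested members, 18 rose and 28 fell, and 14 did not pass. Among all genes 34.5% were higher and 36.1% lower, so the share of members called lower, 46.7%, is above that of all genes and the share called higher, 30.0%, is near it. The median log2 difference was -0.19 over the members and -0.005 over all genes.

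Most of the ligands that had been high in MPCs were lower in MCs. WNT3A was at 11.7 to 17.1 TPM in MCs, against 238 and 246 TPM in MPCs (log2 difference -3.97, SE 0.22, adjusted p = 1.20e-09), the deepest fall among the 61 members. WNT8B was at 51.6 to 70.0 TPM, against 291 and 334 TPM (log2 difference -2.42, SE 0.17). WNT1 and WNT10B fell to 5.93 to 9.14 TPM and to 7.37 to 8.90 TPM in MCs. Others fell little or rose. WNT7B was at 32.6 to 35.7 TPM in MCs, against 40.1 and 44.5 TPM in MPCs (log2 difference -0.29). WNT5B rose to 28.7 to 36.0 TPM in MCs, against 5.48 and 6.13 TPM (log2 difference 2.33, SE 0.25, adjusted p = 1.39e-06), and WNT5A to 15.7 to 18.1 TPM, against 9.84 and 10.3 TPM (log2 difference 0.72). The summed ligand level was 210 to 228 TPM in MCs, against 757 and 842 TPM in MPCs, with WNT8B at 26.9% and WNT7B at 15.9% of the sum.

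Feedback and target transcripts fell as well, and to different depths. NKD1 was at 11.9 to 13.6 TPM in MCs, against 96.7 and 103 TPM in MPCs (log2 difference -2.91, SE 0.19, adjusted p = 6.51e-09). SP5 was at 3.78 to 3.99 TPM, LEF1 at 9.78 to 12 TPM and ZNRF3 at 13.8 to 16.4 TPM in MCs, with log2 differences of -2.61, -1.86 and -1.98. AXIN2 fell less, to 74.9 to 78.0 TPM in MCs (log2 difference -1.16, SE 0.17), and TCF7 was at 18.1 to 19.8 TPM, against 17.2 and 21.0 TPM in MPCs, overlapping. Of the components inside the cell, APC, AXIN1, GSK3B, DVL2 and DVL3 did not pass, DVL1 rose (log2 difference 0.86) and CTNNB1 was at 491 to 549 TPM in MCs, against 563 and 565 TPM in MPCs (log2 difference -0.14, adjusted p = 0.042).

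Receptors shifted again. FZD10 was at 162 to 195 TPM in MCs, against 654 and 704 TPM in MPCs (log2 difference -1.91), while FZD1, FZD2, FZD6 and FZD8 rose by 1.08 to 1.25. FZD2, at 168 to 177 TPM, and FZD10 then made up 26.6% and 27.8% of the summed FZD level. FZD5 rose to 1.41 to 2.27 TPM and stayed far under its 29.1 to 35.0 TPM in pgEpiSCs. FZD4 was called higher, but its log2 difference of 0.43 turned to -0.04 after quantile normalization. LGR4, the R-spondin receptor, was at 87.0 to 98.7 TPM in MCs, against 12 and 12.2 TPM in MPCs (log2 difference 2.87, SE 0.09, adjusted p = 3.82e-12), whereas all 3 R-spondins fell by 1.71 to 2.12 on the log2 scale, RSPO3 to 91.4 to 101 TPM. LGR6 appeared at 0.917 to 1.30 TPM in MCs and was listed at 0 in MPCs.

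Secreted antagonists split evenly, 4 higher and 4 lower. SFRP4 had the largest rise of all members, at 105 to 114 TPM in MCs, against 8.46 and 8.89 TPM in MPCs (log2 difference 3.52, SE 0.18, adjusted p = 5.21e-10). DKK3, a divergent member of the DKK family, was at 204 to 216 TPM, against 47.3 and 51.7 TPM (log2 difference 2.06). DKK1 and DKK2 rose by 0.67 each, DKK1 under only 2 of 4 scalings. SFRP2 fell to 46.0 to 48.9 TPM in MCs (log2 difference -1.33), WIF1 to 7.18 to 10.1 TPM, and DKK4, at 2.46 and 2.49 TPM in MPCs, was listed at 0 in MCs. The rise of SFRP4 and DKK3 moved with the fibroblast list, 14960 to 16230 TPM in MCs and 302 to 323 TPM in MPCs, and with the smooth muscle and mural list, 5012 to 5163 TPM and 1973 to 2059 TPM, and their part was not tested.

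Against pgEpiSCs, MCs still had 45 members higher and 9 lower, with 6 not passed. Among all genes 50.8% were higher and 30.9% lower, so 75.0% of members higher is above the background and 15.0% lower below it. This comparison uses the same pgEpiSC libraries as the comparison of MPCs. WLS was at 396 to 430 TPM in MCs (log2 difference from pgEpiSCs 7.90, SE 0.11, adjusted p = 3.17e-16), and all 7 genes of the R-spondin axis, all 9 components inside the cell and all 4 transcription factors were called higher. SFRP4 exceeded pgEpiSCs by 6.15 and AXIN2 by 3.41. The lower members were FZD5 (-3.47), SFRP1 (-2.69), SFRP5 (-2.56), FZD8 (-0.88), FZD7 (-0.64), PORCN (-0.54), WNT16 (-0.46), SFRP2 (-0.20) and WNT8A, the last listed at 0 in MCs. Of all called genes, 37.8% were lower on the deposited scale and 55.9% after quantile normalization, under which 39 members were higher and 11 lower, and the calls of FZD4 (0.39) and LGR5 (0.62) turned to -0.36 and -0.20.

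The third comparison set MCs against MPC-Dif, the differentiated progeny of muscle stem cells. Of 60 members, 36 were higher and 14 lower in MCs, and 10 did not pass. Among all genes 50.0% were higher and 29.1% lower, and of the members 60% and 23.3%. The median log2 difference was 1.06 over the members and 0.29 over all genes. Of the called genes 36.8% were lower on the deposited scale, 49.6% after median-of-ratios scaling and 54.2% after quantile normalization, with 33 and 32 members higher and 16 and 18 lower.

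Ligands and R-spondins were higher in MCs. Of 16 ligands, 10 were higher and none passed as lower with limma. At an unadjusted p below 0.05 the count of lower ligands was also 0. The summed level was 210 to 228 TPM in MCs, against 22.1 to 24.6 TPM in MPC-Dif. WNT8B was at 51.6 to 70.0 TPM in MCs, against at most 0.104 TPM in MPC-Dif (log2 difference 5.80, SE 0.15, adjusted p = 1.41e-13), and WNT7B at 32.6 to 35.7 TPM, against at most 0.043 TPM (log2 difference 5.13). WNT3 was at 22.7 to 26.3 TPM, against 0.229 to 0.352 TPM (log2 difference 4.27), and WNT3A and WNT1 were listed at 0 in all MPC-Dif libraries. The leading ligand of MPC-Dif was WNT9A, at 11 to 13.4 TPM or 52.9% of its ligand sum, which overlapped with the 9.61 to 13.4 TPM of MCs and did not pass (adjusted p = 0.46). RSPO3 was at 91.4 to 101 TPM in MCs, against 0 to 0.135 TPM in MPC-Dif (log2 difference 6.52, SE 0.11), and RSPO2 at 29.6 to 32.9 TPM, against libraries listed at 0. WNT2B was called higher (log2 difference 1.03) but came out at -0.06 after quantile normalization.

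Of the 10 secreted antagonists, 4 were higher and 5 lower in MCs, and DKK4 did not pass. The 5 lower were the 4 SFRP genes and WIF1. SFRP2 (chr8:75337311-75345926, plus strand) was at 46.0 to 48.9 TPM in MCs, against 3203 to 3574 TPM in MPC-Dif (log2 difference -6.12, SE 0.07, adjusted p = 1.52e-16). SFRP1 was at 26.6 to 28.1 TPM, against 537 to 604 TPM (log2 difference -4.32, SE 0.05), SFRP5 at 0.507 to 0.838 TPM, against 11.9 to 19.3 TPM, and WIF1 at 7.18 to 10.1 TPM, against 48.7 to 55.0 TPM. SFRP4 differed least among these, at 105 to 114 TPM, against 211 to 233 TPM. The SFRP sum was 178 to 190 TPM in MCs, against 3977 to 4402 TPM in MPC-Dif. The 4 higher were DKK1, DKK2, DKK3 and NOTUM, with DKK2 at 22.2 to 26.1 TPM in MCs, against 0.051 to 0.439 TPM, DKK3 at 204 to 216 TPM, against 84.2 to 89.9 TPM, and DKK1 at 5.25 to 8.24 TPM, against libraries listed at 0. NOTUM, which removes the lipid from WNT proteins, was at 3.95 to 5.72 TPM in MCs, against 0.168 to 0.835 TPM in MPC-Dif.

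**Figure D4:**
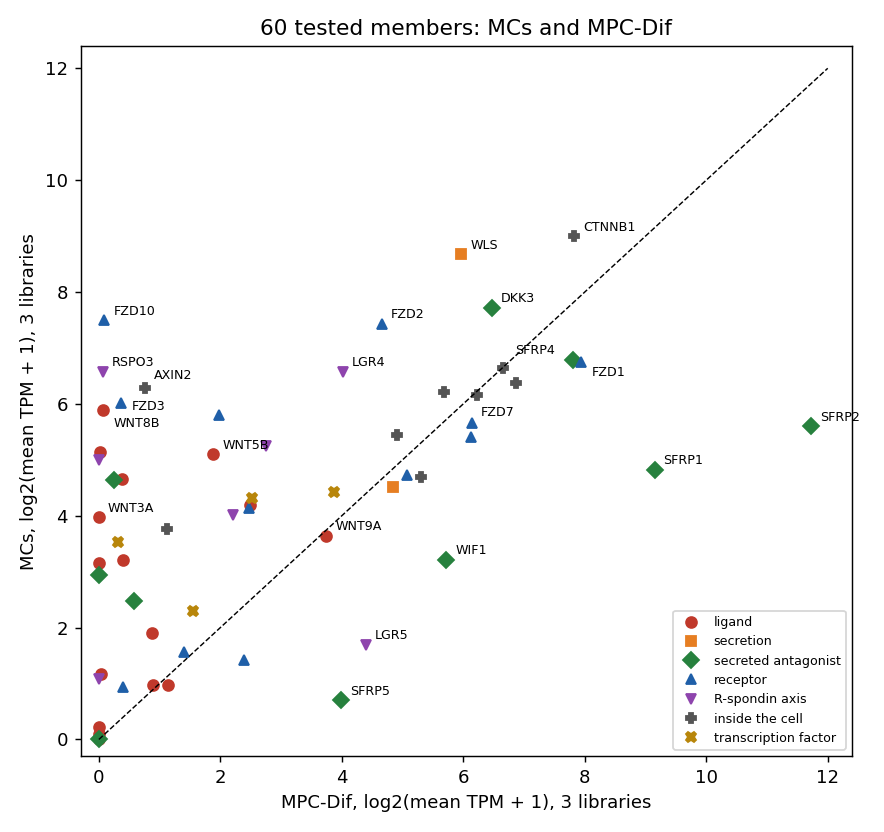
Mean level of the 60 tested members in MCs (vertical axis) against MPC-Dif (horizontal axis), as log2(mean TPM + 1) over 3 libraries each, with the role given by colour and marker and the dashed line marking equal levels. SFRP2, SFRP1, SFRP5, WIF1 and LGR5 lie far below the line, while FZD10, RSPO3, WNT8B, FZD3 and AXIN2 lie at the left edge, near 0 in MPC-Dif.

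The receptors of the 2 kinds of muscle culture differed in identity more than in sum, 627 to 671 TPM in MCs and 323 to 375 TPM in MPC-Dif. FZD10 was at 162 to 195 TPM in MCs, against 0 to 0.195 TPM in MPC-Dif (log2 difference 7.41, SE 0.09, adjusted p = 2.48e-16), the widest gap among members in this comparison. FZD3, a receptor of axon guidance and planar polarity, was at 56.5 to 73.6 TPM, against 0.199 to 0.374 TPM (log2 difference 5.64), FZD6 at 50.8 to 60.3 TPM, against 2.40 to 3.73 TPM, and FZD2 at 168 to 177 TPM, against 23.8 to 24.6 TPM. FZD1 led in MPC-Dif with 69.3% of the FZD sum, at 98.1 to 113 TPM in MCs, against 218 to 266 TPM in MPC-Dif (log2 difference -1.17). FZD4, FZD7 and the co-receptors LRP5 and LRP6 were lower in MCs by 0.35 to 0.96. LGR5, a stem cell receptor for R-spondins, was at 2.12 to 2.41 TPM in MCs, against 18.3 to 21.1 TPM in MPC-Dif (log2 difference -2.71, SE 0.15), while LGR4 was at 87.0 to 98.7 TPM, against 13.6 to 16.1 TPM.

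Among the feedback genes of the 61, AXIN2, LEF1, NKD1, ZNRF3 and NOTUM were higher in MCs. AXIN2 was at 74.9 to 78.0 TPM in MCs, against 0.624 to 0.774 TPM in MPC-Dif (log2 difference 5.52, SE 0.15, adjusted p = 2.23e-13), LEF1 at 9.78 to 12 TPM, against 0.178 to 0.316 TPM, and NKD1 at 11.9 to 13.6 TPM, against 0.621 to 1.88 TPM. ZNRF3 and RNF43 were higher by 1.80 and 2.27. SP5 was at 3.78 to 3.99 TPM, against 1.23 to 2.54 TPM, a log2 difference of 0.77 that turned to -0.30 after quantile normalization, and FZD9, under 1.5 TPM throughout, turned likewise. CTNNB1 was at 491 to 549 TPM in MCs, against 215 to 239 TPM in MPC-Dif (log2 difference 1.18), whereas APC (-0.60) and DVL3 (-0.50) were lower in MCs and DVL1 and DVL2 did not pass. MCs and MPC-Dif also differed in the dorsal neural and fibroblast sums given above. The paraxial mesoderm sum was 57.6 to 64.1 TPM in MCs, against 224 to 293 TPM in MPC-Dif. PDGFRA led it in MPC-Dif, averaging 240 TPM, against 3.61 TPM in MCs. TBX6 and MEOX1 went the other way, averaging 35.9 and 20.3 TPM in MCs, against 4.90 and 2.93 TPM. The smooth muscle and mural sums, led by ACTA2 and TAGLN, overlapped, at 5012 to 5163 TPM, against 4711 to 5742 TPM. Yet CNN1 and MYH11 averaged 84.8 and 8.44 TPM in MCs, against 6.08 and 0.638 TPM in MPC-Dif. PDGFRB and RGS5 averaged 346 and 0.141 TPM in MCs, against 634 and 23.9 TPM. The part of those lists in these results was not tested.

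Among the Wnt genes outside the 61, 14 of 16 other antagonists and modulators were higher in MCs and 1, CPZ, was lower. DKKL1 averaged 99.7 TPM in MCs and 0.845 TPM in MPC-Dif, and CPZ, a carboxypeptidase with a Frizzled-like domain, 3.21 and 46.6 TPM. Of the 19 co-receptor and non-canonical genes, 10 were higher and 7 lower. The planar polarity genes VANGL2 and CELSR1 averaged 171 and 92.7 TPM in MCs, against 0.316 and 1.27 TPM in MPC-Dif, and the WNT5A receptor ROR2 averaged 10.7 TPM in MCs and 127 TPM in MPC-Dif (log2 difference -3.46). Of 36 reported targets, 23 were higher and 7 lower, with PAX3 at a mean of 114 TPM in MCs and 0.517 TPM in MPC-Dif, and CD44, a surface glycoprotein of mesenchymal cells, at 33.3 and 106 TPM. Of 30 destruction complex and nuclear genes, 19 were higher and 3 lower. Among all genes 50.0% were higher and 29.1% lower in MCs, and whether the lists differ from these shares was not tested.

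MPC-Dif against pgEpiSCs gave 24 members higher, 24 lower and 12 not passed. Among all genes 37.4% were higher and 44.1% lower, and 40.0% of members went each way, near those shares. The median log2 difference was -0.02 over the members and -0.10 over all genes. The highest were secreted antagonists and their neighbours at the cell surface. SFRP4, at 211 to 233 TPM in MPC-Dif, against 0 to 1.96 TPM in pgEpiSCs, differed by 7.17 (SE 0.14, adjusted p = 2.95e-15), and SFRP2, at 3203 to 3574 TPM, against 45.3 to 71.7 TPM, by 5.92 (SE 0.06, adjusted p = 9.64e-18). WIF1 (5.55), WLS (5.19), FZD1 (3.99) and LGR5 (3.32) followed. The lowest was FZD10, at 0 to 0.195 TPM in MPC-Dif, against 12 to 38.7 TPM in pgEpiSCs (log2 difference -4.39, SE 0.08), followed among members not listed at 0 by FZD3 (-4.18), FZD5 (-3.64), WNT3 (-2.74), FZD8 (-2.54), FZD2 (-2.47) and AXIN2 (-2.11), while WNT3A, WNT8A and DKK1 were listed at 0 in MPC-Dif. The call of GSK3B as higher (0.25) turned to -0.02 with mitochondrial genes left out, a setting that left 19 members higher and 25 lower and moved the median of all genes to -0.29.

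The last comparison, pgEpiSCs-high with pgEpiSCs-Low, addressed how stable the pathway was over long culture. Of 60 members, 9 were higher and 12 lower in pgEpiSCs-high, while 39 did not pass. Among all genes 8.36% were higher and 15.7% lower, against 15.0% and 20.0% of the members. The medians were -0.07 over the members and -0.04 over all genes. Called genes were lower in 65.2% of cases on the deposited scale but in 46.2% after median-of-ratios scaling and 48.2% after quantile normalization, each of which gave 10 members higher and 9 lower.

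Large differences concerned few genes. WNT8A was at 0.854, 1.08 and 1.83 TPM in pgEpiSCs-high, against 15.7, 16.0 and 21.3 TPM in pgEpiSCs-Low (adjusted p = 3.32e-08), and made up 42.6% of the ligand sum at low passage. At high passage WNT3, another primitive streak ligand, led with 38.6% of the sum, at 9.66, 10.8 and 10.9 TPM, against 4.86, 4.96 and 7.34 TPM in pgEpiSCs-Low (log2 difference 0.79, SE 0.13, adjusted p = 6.61e-04). The ligand sum was 25.9 to 28.1 TPM in pgEpiSCs-high, against 38.1 to 46.1 TPM in pgEpiSCs-Low. WNT5A was lower by 0.53 on the log2 scale at high passage. The other 13 tested ligands did not pass.

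Frizzled genes went in opposite directions. FZD10 was at 32.8, 34.0 and 38.7 TPM in pgEpiSCs-high, against 12, 12.8 and 13.5 TPM in pgEpiSCs-Low (log2 difference 1.39, SE 0.09, adjusted p = 3.05e-07). FZD8 was at 8.43, 10.7 and 17.8 TPM, against 74.9, 75.0 and 86.5 TPM (adjusted p = 1.80e-06), and FZD7 at 59.0, 63.7 and 65.5 TPM, against 92.6, 95.0 and 97.7 TPM (log2 difference -0.59, SE 0.06). The other 7 Frizzled genes did not pass. LGR5 was at 1.64, 2.06 and 2.33 TPM in pgEpiSCs-high, against 0.20, 0.435 and 0.885 TPM (log2 difference 1.02, SE 0.15), and WLS at 0.875, 1.56 and 1.64 TPM, against 0.123, 0.190 and 0.503 TPM (log2 difference 0.89), low levels in every library. SFRP2 was at 58.2, 68.2 and 71.7 TPM, against 45.3, 45.5 and 45.7 TPM (log2 difference 0.52, SE 0.07, adjusted p = 1.08e-04). Inside the cell, APC was at 12.3, 13.2 and 14 TPM in pgEpiSCs-high, against 16.7, 17.7 and 20.0 TPM (log2 difference -0.43), and CTNNB1 at 316, 324 and 331 TPM, against 369, 377 and 384 TPM (log2 difference -0.22).

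**Figure D5:**
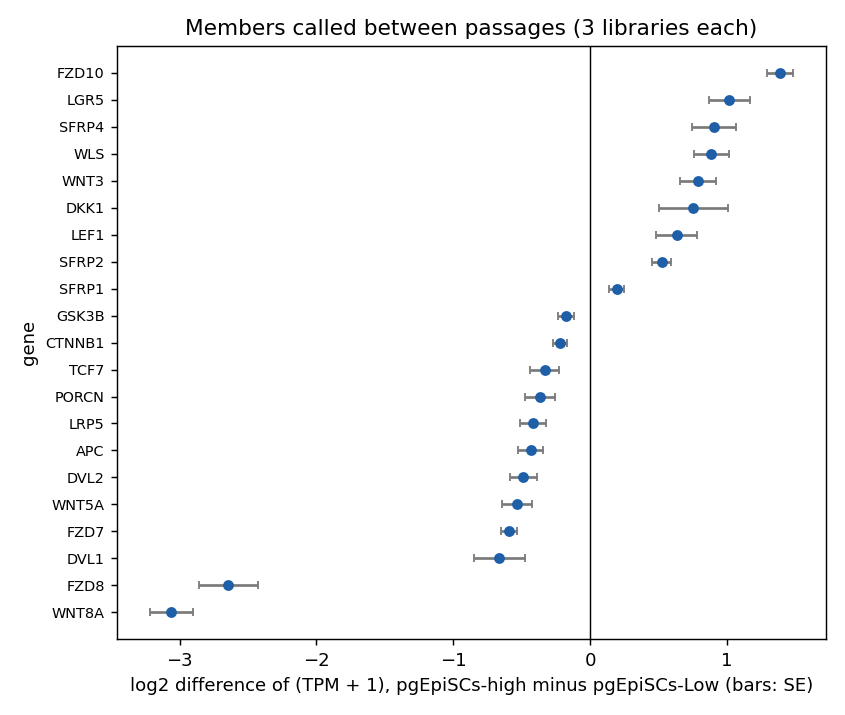
Log2 difference of (TPM + 1), pgEpiSCs-high minus pgEpiSCs-Low, with its SE, for the 21 members called between the passages. WNT8A and FZD8 lie beyond -2.6, FZD10 at 1.39, and most of the others within 1 log2 unit of 0.

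The remaining calls were smaller and less stable. SFRP1, SFRP4, DKK1 and LEF1 were called higher and PORCN, LRP5, DVL1, DVL2, GSK3B and TCF7 lower, with log2 differences of -0.67 to 0.90, and these 10 of the 21 calls were lost in at least 1 alternative analysis. A fit of the 6 pgEpiSC libraries alone kept 5 higher and 6 lower. DKK1 rested on a low value of 0.16 TPM in the second pgEpiSCs-Low library, against 1.47 and 1.55 TPM in the other pair, and without it the adjusted p was 0.14. The feedback transcripts AXIN2, NKD1, ZNRF3 and NOTUM did not pass between the passages (adjusted p = 0.32, 0.090, 0.56 and 0.40), and AXIN2 was at 4.91 to 6.97 TPM in pgEpiSCs-high, against 4.99 to 8.43 TPM in pgEpiSCs-Low. Of the Wnt genes outside the 61, SHISA2, which holds Frizzled receptors inside the cell, averaged 26.6 TPM in pgEpiSCs-high and 72.1 TPM in pgEpiSCs-Low (log2 difference -1.40). GPC4, a glypican co-receptor, was lower by 0.96 on the log2 scale, and CCND2, a cyclin reported as a target, averaged 21.5 TPM in pgEpiSCs-high and 6.49 TPM in pgEpiSCs-Low (log2 difference 1.60). In the 4 lists 2 of 16 antagonists, 2 of 19 co-receptor and non-canonical genes, 1 of 30 destruction complex and nuclear genes and 5 of 36 targets were higher, and 5, 9, 6 and 7 lower. The shares over all genes were 8.36% higher and 15.7% lower, and whether the lists differ from these was not tested.

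Some members varied little across the 5 groups. GSK3B stayed between 38.5 and 75.6 TPM in all 14 libraries, FZD7 between 46.8 and 97.7 TPM and AXIN1 between 24.4 and 51.4 TPM. In contrast, the levels of WLS ran from 0.123 to 566 TPM, of FZD10 from 0 to 704 TPM and of SFRP2 from 45.3 to 3574 TPM. WNT2B, WNT7A, WNT9B, WNT10A, WNT11, WNT16, DKK4, FZD4, FZD9 and LGR6 were at most 4.49 TPM in every library, so differences among them rest on low values.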

How the data were processed

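Poly-A RNA-seq was made from 14 libraries in 5 groups. The authors trimmed reads, aligned them to Sscrofa11.1 with HISAT2, counted them per gene with featureCounts and deposited TPM values; read counts were not used here, so the count test of the study was not repeated and depth is unknown. The strand setting of the counting is not given in the sources used here.

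Members were the rows whose gene name matched the family rule, and GSK3A and RNF43, listed under Ensembl identifiers, were read separately. The members, lists and tests were chosen with earlier results of these data known. A gene was tested where 50% or more of the libraries in any group exceeded 0.5 TPM. Then log2(TPM + 1) was fitted in limma 3.58.1 (R 4.3.3) with a mean per group and an intensity trend, with Benjamini-Hochberg adjustment over all 14957 genes and a threshold of 0.05. The reference "pgEpiSCs" is the mean of the high and Low group means. The rule for named members took up to 12 highest and 12 lowest log2 differences among called members whose libraries did not overlap. Further members were named to complete each role after their values were seen. The fit was tested on simulated data. Positions and promoter windows came from RefSeq on Sscrofa11.1, which gave a position for all 61 members. Alternatives covered pseudocounts, filters, scalings, the samples in the fit, the reference group and each library left out.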

Additional observations from a re-analysis of the deposited data

How the results depend on the processing

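The counts of members higher and lower in the 6 comparisons were recomputed under 226 combinations of result and setting. Of these, 224 stayed within 1.5 times the reported count and 2 did not. A fit of only the groups compared gave 5 higher and 6 lower members in pgEpiSCs-high against pgEpiSCs-Low, where the reported counts are 9 and 12; this fit has fewer libraries to estimate the spread. No direction was reversed among the 2488 values of members named by the rule. Of these values 52 fell short of the threshold, all in the passage comparison apart from DKK3 in MPCs. Outside the rule, called members did change direction between scalings, 1 of 51 in MPCs against pgEpiSCs and 2 of 54 in MCs against pgEpiSCs. The counts were 1 of 46 in MCs against MPCs, 1 of 48 in MPC-Dif against pgEpiSCs and 3 of 50 in MCs against MPC-Dif. Leaving out each library in turn gave 7 to 12 higher and 8 to 13 lower between passages, 38 to 42 and 9 to 10 in MPCs against pgEpiSCs, 44 to 45 and 8 to 9 in MCs against pgEpiSCs, 15 to 18 and 23 to 28 in MCs against MPCs, 22 to 25 and 22 to 25 in MPC-Dif against pgEpiSCs, and 35 to 37 and 13 to 14 in MCs against MPC-Dif. The labels give replicate numbers in all groups. Over 26 pairs of libraries with the same number the deviations from the group means correlated at -0.15 to 0.13, with 1 pair over 0.1. Pairs with different numbers were not compared, so these values cannot tell whether libraries with the same replicate number share a culture or batch. With that number as a block, the higher and lower counts were 8 and 10, 42 and 10, 45 and 9, 17 and 25, 23 and 24, and 36 and 14, in the order passages, MPCs against pgEpiSCs, MCs against pgEpiSCs, MCs against MPCs, MPC-Dif against pgEpiSCs and MCs against MPC-Dif. Median-of-ratios scaling moved the median log2 difference of all genes in MPCs against pgEpiSCs to 0, against 0.24 as deposited, and in MCs against MPC-Dif to 0.03, against 0.29. Of the members called, 18 of 21, 46 of 51, 49 of 54, 38 of 46, 40 of 48 and 45 of 50 were called under all 4 scalings in the same order of comparisons. Leaving the MPCs libraries out of the fit was chosen after seeing the data and moved no count beyond 1.5 times. Only 2 libraries stand behind each value of MPCs, and without read counts the precision of transcripts near 0 TPM could not be given.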
